A study of Mus musculus with 12 samples.

Results

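Gene-body H3K4me3 intervals are short stretches of H3K4me3 that lie inside protein-coding genes but far from where those genes begin and end. They were found by merging overlapping or touching peaks of the 2 WT H3K4me3 libraries on chromosomes 1 to 19 (mm10). An interval was kept when both WT libraries touched it, when it was shorter than 4000 bp, and when it lay inside a RefSeq protein-coding gene and more than 5000 bp from both ends of every protein-coding gene. The rule kept 3950 of the 21142 intervals that both WT libraries held (18.7%). Of the others, 12193 were short intervals within 5000 bp of a gene end, 3763 were short and intergenic, and 1236 were 4000 bp or wider.

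The cells were cKit+ bone marrow cells of C57BL/6 mice, sorted 4 days after the mice were given poly(I:C). KO mice carried floxed Ints11 alleles and the Mx1Cre transgene, and the WT mice were their littermates. Mx1Cre is an interferon-inducible recombinase that poly(I:C) switches on in blood-forming and other cells, and poly(I:C), itself an interferon inducer, was part of both groups' treatment; the labels do not say whether the WT mice carried Mx1Cre. The KO libraries are named KO_399 and KO_401 and the WT libraries WT_407 and WT_409, the numbers being read here as those of 2 mice per genotype, and each animal also gave an H3K27me3 library.

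The H3K4me3 lists held 26922 and 24409 peaks on chromosomes 1 to 19 in KO_399 and KO_401, and 24455 and 25575 in WT_407 and WT_409. Background was recovered from the statistics of each peak. Its most common value was 2.65 and 1.93 reads per position in the KO libraries and 2.23 and 1.94 in the WT libraries. At that value a peak of 5-fold enrichment needed 17.2 and 13.6 reads in KO and 15.1 and 13.7 reads in WT. The background differs between positions, so single peaks can need other numbers of reads. KO_399 had the highest most common background and the most peaks. WT_409 stood apart at erythroid genes: 5 of 5 erythroid markers had an H3K4me3 peak at a gene end there, against 2 of 5 in each of the other 3 libraries. All 4 libraries had a peak at 6 of 7 progenitor markers and at 6 of 6 granulocyte and monocyte markers. Stromal and endothelial markers had end peaks at 5 and 4 of 5 genes in KO and at 3 and 2 of 5 in WT, B-cell markers at 5 and 3 of 6 in KO and 3 and 5 of 6 in WT, and T- and NK-cell markers at 3 and 3 of 6 in KO and 2 and 2 of 6 in WT. Ints11 itself had 3 H3K4me3 peaks in every library, which neither shows nor tests its deletion.

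H3K4me3, trimethylation of lysine 4 of histone H3, is laid down by SET1 and MLL complexes and is known best as the mark of active and CpG-rich transcription start sites. Inside genes it marks alternative promoters, and weaker H3K4me3 occurs at active enhancers. H3K27me3, laid down by Polycomb repressive complex 2, can share a start site with it, an arrangement called bivalent and known at developmental genes of stem cells. INTS11 is the endonuclease of the Integrator complex, which cuts the precursors of spliceosomal small nuclear RNAs (snRNAs) and nascent transcripts near promoters.

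Of the 3950 intervals, 516 held the annotated start of a coding transcript and 87 held only the start of a long non-coding RNA (lncRNA). The 300 bases around 8 such starts are shown to let the range of base composition be read directly, from the CpG-dense starts inside Brd3 and Foxp1 to the CpG-poor start of Tbrg3. They come from RefSeq (GRCm38.p6, which has the mm10 coordinates), run 5′ to 3′ on the transcript's strand from 250 bases before to 50 bases after the start, and carry each CG dinucleotide in capitals.
Elf2: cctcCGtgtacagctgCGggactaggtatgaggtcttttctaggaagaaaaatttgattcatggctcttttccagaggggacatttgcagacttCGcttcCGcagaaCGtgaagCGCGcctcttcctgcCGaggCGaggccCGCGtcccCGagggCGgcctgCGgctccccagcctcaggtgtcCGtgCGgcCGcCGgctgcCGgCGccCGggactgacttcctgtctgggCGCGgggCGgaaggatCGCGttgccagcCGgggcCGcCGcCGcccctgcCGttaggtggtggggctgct
Dnmt1: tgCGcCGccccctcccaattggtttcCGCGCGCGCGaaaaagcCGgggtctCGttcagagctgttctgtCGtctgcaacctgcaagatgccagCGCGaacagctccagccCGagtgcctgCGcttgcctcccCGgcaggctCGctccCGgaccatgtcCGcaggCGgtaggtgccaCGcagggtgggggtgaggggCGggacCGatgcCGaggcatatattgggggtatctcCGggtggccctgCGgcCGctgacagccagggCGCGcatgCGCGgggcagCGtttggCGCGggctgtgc
Brd3: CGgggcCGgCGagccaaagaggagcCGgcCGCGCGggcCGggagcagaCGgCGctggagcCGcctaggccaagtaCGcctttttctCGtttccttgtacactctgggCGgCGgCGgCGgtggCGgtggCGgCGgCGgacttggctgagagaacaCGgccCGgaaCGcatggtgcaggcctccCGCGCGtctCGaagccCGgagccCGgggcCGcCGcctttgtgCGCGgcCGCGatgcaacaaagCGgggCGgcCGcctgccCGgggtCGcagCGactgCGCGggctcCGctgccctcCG
Foxp1: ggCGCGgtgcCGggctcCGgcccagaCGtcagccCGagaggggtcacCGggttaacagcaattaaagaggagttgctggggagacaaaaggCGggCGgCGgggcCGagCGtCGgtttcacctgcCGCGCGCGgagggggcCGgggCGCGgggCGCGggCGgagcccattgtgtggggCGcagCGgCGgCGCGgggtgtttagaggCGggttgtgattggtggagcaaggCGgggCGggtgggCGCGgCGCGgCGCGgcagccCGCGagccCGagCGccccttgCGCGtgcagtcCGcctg
Gata3: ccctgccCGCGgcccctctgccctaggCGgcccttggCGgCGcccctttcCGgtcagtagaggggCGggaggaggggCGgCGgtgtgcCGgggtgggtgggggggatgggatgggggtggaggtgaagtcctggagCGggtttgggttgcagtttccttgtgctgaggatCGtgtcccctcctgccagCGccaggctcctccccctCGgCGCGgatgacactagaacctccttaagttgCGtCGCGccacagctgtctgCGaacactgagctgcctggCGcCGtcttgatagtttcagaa
Mecom: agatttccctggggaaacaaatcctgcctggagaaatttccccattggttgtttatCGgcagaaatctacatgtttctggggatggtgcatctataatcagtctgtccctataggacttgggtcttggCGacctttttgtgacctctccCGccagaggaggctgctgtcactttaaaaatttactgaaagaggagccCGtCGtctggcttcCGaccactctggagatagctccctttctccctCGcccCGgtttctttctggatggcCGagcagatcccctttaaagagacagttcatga
Tbrg3: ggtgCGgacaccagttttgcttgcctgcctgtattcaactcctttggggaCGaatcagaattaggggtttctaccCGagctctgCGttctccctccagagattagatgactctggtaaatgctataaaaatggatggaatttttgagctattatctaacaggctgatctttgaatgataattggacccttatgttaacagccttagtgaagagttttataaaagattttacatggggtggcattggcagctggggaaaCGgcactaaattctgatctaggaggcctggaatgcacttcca
Gm34102: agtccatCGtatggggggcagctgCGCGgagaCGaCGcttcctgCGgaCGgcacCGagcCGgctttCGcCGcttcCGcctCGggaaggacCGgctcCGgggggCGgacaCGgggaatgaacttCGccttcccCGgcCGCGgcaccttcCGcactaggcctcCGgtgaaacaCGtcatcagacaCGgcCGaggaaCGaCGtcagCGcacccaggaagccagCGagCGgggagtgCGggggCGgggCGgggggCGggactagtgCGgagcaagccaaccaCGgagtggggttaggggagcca
The Elf2 window lies at chr3:51277465-51277764 (minus strand), that of Dnmt1 at chr9:20952574-20952873 (minus), that of Brd3 at chr2:27475349-27475648 (minus) and that of Foxp1 at chr6:99028249-99028548 (minus). The Gata3 window is at chr2:9878551-9878850 (minus), that of Mecom at chr3:30013155-30013454 (minus), that of Tbrg3, inside Tcf20, at chr15:82898412-82898711 (minus), and that of Gm34102, inside Mia3, at chr1:183345290-183345589 (plus). CG dinucleotides numbered 46 in the Brd3 window, 44 in Foxp1, 37 in Gm34102, 33 in Dnmt1, 31 in Elf2, 22 in Gata3, 9 in Mecom and 5 in Tbrg3. Each start shown is the interval's annotated one nearest to its WT summits, which lay 332 and 106 bp in Dnmt1, 156 and 118 bp in Mecom and 737 and 758 bp at Tbrg3 away from it in WT_407 and WT_409.

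Gene-body intervals were short and weak compared with those at gene ends. Their width ran from 185 to 3989 bp with a median of 999.5 bp and quartiles of 691 and 1516 bp, against a median of 1809 bp at gene ends and 859 bp between genes. Ranked by the peak's −log10 q within its own library, the median member stood at the 35.9th percentile of WT peaks, against the 71.0th for intervals near gene ends and the 38.4th for intergenic ones. The authors' fold enrichment had a median of 13.1 in KO_399 and 10.9 in KO_401, where a peak was present, and of 9.84 in WT_407 and 10.9 in WT_409; at gene ends it was 50.3 and 50.1 in KO and 39.7 and 48.2 in WT. Summits of the members held a median of 51 and 34 reads in KO and 33 and 34 reads in WT. The members were chosen by presence in both WT libraries, width and position, so these values only describe the set.

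The limits of the rule cut through a continuous range. The widest members were in Nr3c1 (3989 bp) and Pxn (3981 bp), and the narrowest intervals that were too wide were in Psma6 (4023 bp) and Stag1 (4025 bp). The members nearest to a gene end were in Dscam (5002 bp away) and Ppfia3 (5004 bp), and the farthest ones that were too near were in Igfbp7 (4995 bp) and Bcl6 (4988 bp). The median member lay 20809 bp from the nearest end of a coding gene.

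The strongest members ranked among the strongest peaks of their lists. The 8 with the highest mean WT percentile were in Fam13b, Nr3c1, Slf2, Elf2, Dnmt1, Hexim2, Tacc1 and Brd3, at percentiles of 97.1 to 99.8. Nr3c1 encodes the glucocorticoid receptor, Elf2 an ETS-family transcription factor, Dnmt1 the maintenance DNA methyltransferase and Brd3 a BET bromodomain protein that binds acetylated histones. The Elf2 interval (chr3:51275117-51278477) lay 63.9 kb from the gene's start and measured 3504 and 3445 bp in KO_399 and KO_401, against 3208 and 3185 bp in WT_407 and WT_409. That of Dnmt1 (chr9:20950423-20953508), 7.92 kb from the start, measured 3661 and 2823 bp in KO and 3009 and 2815 bp in WT. KO peaks were the wider at Elf2 and the genotypes overlapped at Dnmt1. The Brd3 interval (chr2:27472812-27476750), 32.9 kb from the start, measured 4146 and 4065 bp in KO and 3857 and 3930 bp in WT, again wider in both KO libraries. Its rank in the list was the 79.4th percentile in KO_399, the 97.0th in KO_401, and the 99.1st and 95.1st in the WT libraries. Its summit held 251 and 229 reads in KO and 224 and 226 reads in WT. KO_399 thus had the lowest rank but the most reads.

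Among the strongest intervals at lncRNA starts, the one in Tcf20, a transcriptional coregulator, lay at Tbrg3, 89.0 kb from the Tcf20 start. It measured 2972 and 2696 bp in KO and 2579 and 2614 bp in WT. The interval in Mia3, which encodes the endoplasmic reticulum protein TANGO1 that exports collagen, lay at Gm34102 and measured 2296 and 1914 bp in KO and 1706 and 1745 bp in WT. KO peaks were wider than WT peaks at both. The intervals in Pdpk1, the kinase that activates AKT, and Srrm2, a splicing factor of nuclear speckles, held a lncRNA start beside a coding start of the host (Gm33409 and Gm52285), and the one in Pfdn4, a prefoldin subunit, held Gm16796 (1447 and 1303 bp in KO, 1391 and 1347 bp in WT).

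The members were spread over 2446 genes, 18.4% of the 13319 autosomal coding genes longer than 10 kb, which are the ones long enough to hold one. A single member was found in 1629 of these genes, 2 to 4 in 725 and 5 or more in 92. Hosts were long, with a median span of 78.5 kb against 28.3 kb in the other eligible genes. Of genes spanning 10 to 30 kb 6.42% were hosts, of those spanning 30 to 100 kb 22.0%, of those spanning 100 to 300 kb 42.4% and of longer ones 42.2%. At a given length, genes with an H3K4me3 peak at their own ends hosted members more often than genes without (49.6% against 28.5% between 100 and 300 kb, and 6.92% against 5.32% between 10 and 30 kb).

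Pde4d, a cAMP phosphodiesterase gene with many transcript forms, held the most members, 18 over 1302 kb. All 18 had a peak in KO_399 and 17 in KO_401. The bases covered by peaks inside the 18 intervals summed to 25584 and 23058 bp in KO and 25062 and 25236 bp in WT. None of the 18 held an annotated coding start, and their strength ran from the 15.2nd to the 74.3rd percentile. Chd9, a chromatin remodeller, and Foxp1, a forkhead transcription factor needed for B-cell development, held 11 each. By the same measure the Chd9 members summed to 15616 and 13721 bp in KO and 15554 and 15093 bp in WT. Those of Foxp1 summed to 16213 and 12967 bp in KO and 15785 and 14455 bp in WT. In all 3 genes KO_399 was above and KO_401 below both WT libraries. WT peaks set the borders of the intervals, so only KO peaks are cut at them in these sums. Baz2b, Cmip, Maml3, Rapgef2 and Zfhx3 held 10 members each. A member of Pde4d, 1249.6 kb from its start, holds Mir1904, and a member in the predicted coding gene Gm38821 (chr6:51269606-51271493) holds Mir148a, whose mature strand is shown with its seed (bases 2 to 8) in capitals, since it is the best known of the miRNAs that lie in members.
mmu-miR-148a-3p: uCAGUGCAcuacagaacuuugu
The Mir148a interval measured 2114 and 1866 bp in KO and 1888 and 1834 bp in WT, and the genotypes overlapped.

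Members lay more often towards the start of their host than towards its end. Over the 3164 members with a single host of known strand, the median lay at 0.426 of the span, 32.6 kb from the start (quartiles 14.8 and 82.4 kb), and 1871 (59.1%) lay in the part of the span nearer the start. The share was 67.3% for members with a coding start and 58.0% for those with none. The rule keeps 5000 bp clear at both ends of every gene, and its part in the low counts of the outer parts was not tested.

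**Figure D1:**
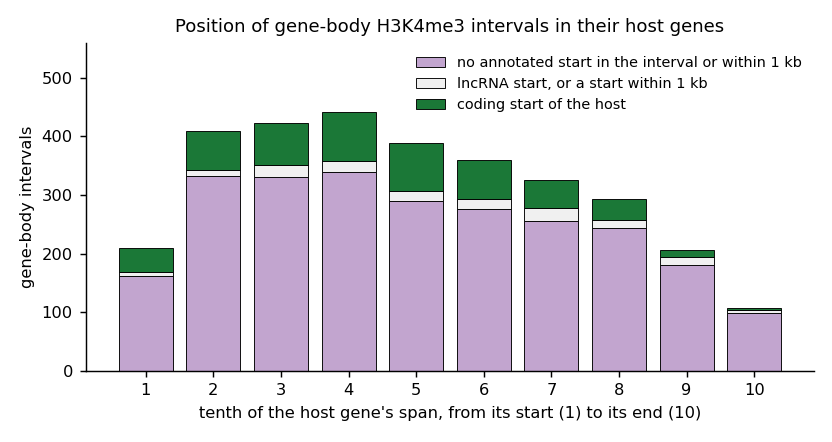
Number of gene-body H3K4me3 intervals (y axis) by position in the host gene's span cut into 10 equal parts (x axis, from start to end), stacked by what the interval holds. The fourth part from the start holds the most, 441, and the last part 108.

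Most members held no annotated start. By RefSeq's promoter windows, 3136 had no start inside or within 1000 bp, and the host of 2520 of these has a window there; 85 had a start within 1000 bp, and 126 lie on a chromosome that these windows do not cover. In all 516 members with a coding start, the start was an alternative one of the host gene itself. These 516 were wider and stronger than the 3136 without a start, with a median width of 1762 bp against 926 bp and a median WT percentile of 64.0 against 32.6. Seen from the starts, 2053 annotated coding starts lay deep inside a gene and 595 of them (29.0%) were in a member. The ratio of observed to expected CpG in the 300-base window was higher at the marked starts than at the unmarked ones: of the 558 internal starts with a ratio above 0.6, 343 (61.5%) lay in a member, against 252 of 1495 (16.9%) with a ratio up to 0.6. The median ratio was 0.649 at coding starts in members and 0.510 at lncRNA starts in members, against 0.248 at the 1266 internal coding starts with no WT peak and 0.794 at starts near gene ends. Genes share starts and neighbouring windows overlap, so these windows are not independent and no test was made.

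Short motifs were searched on both strands of the same windows. GGGCGG, the core of SP and KLF sites, was in 58.8% of windows at coding starts in members, and in 68.0% at starts near gene ends. It was in 36.0% of all 31396 RefSeq windows and 18.1% of internal starts with no peak. The median GC content of these 4 sets was, in the same order, 60.3%, 62%, 53% and 50%, and its part in the motif shares was not tested. AGATAA (a site of GATA factors) was in 6.22% against 11.2% of all windows, TGTGGT (RUNX factors) in 12.1% against 16.7%, CAGCTG (E-box) in 17.8% against 16.3%, TGACTCA (AP-1) in 4.71% against 5.26% and ACAGGAAG (ETS factors) in 4.71% against 3.62%. At internal coding starts with no peak these 5 stood, in the same order, at 12.6%, 20.7%, 22.8%, 6.48% and 3.87%. For CAGCTG the members were thus above all windows but below the internal starts with no peak. At starts near gene ends the 5 stood at 5.19%, 11.7%, 13.9%, 2.83% and 3.03%. Of the windows shown, those of Elf2, Dnmt1, Brd3, Foxp1, Gata3 and Gm34102 hold GGGCGG, and those of Elf2, Gata3, Tbrg3 and Gm34102 hold CAGCTG. Elf2 also holds ACAGGAAG, Tbrg3 also holds AGATAA, and Mecom holds none of the 6 motifs.

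Regulators of blood stem and progenitor cells were frequent hosts. Of the 48 listed genes long enough, 28 (58.3%) held 86 members, against 18.4% of all eligible genes; their median span of 97.0 kb was longer than the 33.4 kb of all eligible genes, and 42.4% of all genes of 100 to 300 kb were hosts. Peaks were present in both KO libraries at 77 of the 86 members and in neither at 2, in Etv6 and Runx2, beside 88.4% and 2.58% of all members. Foxp1 held 11, Etv6, an ETS repressor needed by adult stem cells, held 8, and Runx2 and Mef2c held 6 each. The Spi1 interval (chr2:91096010-91099921), in the gene of the myeloid and B-cell factor PU.1, measured 6618 and 3833 bp in KO and 3859 and 3701 bp in WT, so that KO_399 alone was wide. At Satb1, a chromatin organiser of lymphoid cells, the interval over an alternative start (chr17:51811417-51815007) measured 3683 and 3317 bp in KO and 3150 and 3525 bp in WT. At Ldb1, an adaptor of GATA and LIM-domain complexes, it measured 3388 and 3603 bp in KO and 3460 and 3506 bp in WT. Both overlapped between genotypes. The Runx3 interval over an alternative start, 32.9 kb into the gene of this lymphoid RUNX factor, measured 2996 and 2792 bp in KO and 2988 and 2738 bp in WT, also without a gap between genotypes.

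Other lists hosted fewer members, and their shares of hosts are given beside the 18.4% of all eligible genes. B lymphoid genes were hosts at 6 of 14 genes (16 members), erythroid and megakaryocyte genes at 4 of 13, chromatin and RNA processing genes at 10 of 38, T and NK lymphoid genes at 5 of 20 and p53 targets and cell-cycle inhibitors at 3 of 12. Long neuronal genes, with a median span of 1117 kb, were hosts at 7 of 30, interferon-stimulated genes at 4 of 21, granulocyte and monocyte genes at 2 of 12, stromal and endothelial genes at 3 of 19 and ubiquitously expressed genes at 1 of 11. The Ets1 interval (chr9:32695109-32698423), in a lymphoid ETS factor gene, measured 3337 and 3178 bp in KO and 3139 and 3315 bp in WT. That of Sesn1, a p53-induced regulator of mTORC1, measured 3180 and 2467 bp over an alternative start in KO and 2443 and 2457 bp in WT, and that of Trim30a, an interferon-induced gene, 2505 and 2537 bp in KO and 2561 and 1898 bp in WT. At Sesn1 KO_399 was clearly the widest and KO_401 only just wider than WT, and the genotypes overlapped at Ets1 and Trim30a.

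Most members kept a peak in KO cells, and outside the weakest ones nearly all did. A peak was found in both KO libraries at 3491 of 3950 members (88.4%), against 93.5% of all 21142 intervals, 96.7% of those near gene ends and 86.6% of intergenic ones. It was found in neither KO library at 102 members (2.58%), against 1.44% of all intervals, and in 1 KO library at 357, of which 279 were in KO_399 alone and 78 in KO_401 alone. When all 21142 intervals were split into 4 equal bins by WT strength, the weakest bin held 1875 members, of which 76.2% were in both KO libraries, against 78.4% of gene-end and 70.1% of intergenic intervals of that bin. In the next bin the shares were 99.1% of 1376 members, 99.4% of gene-end and 98.7% of intergenic intervals, and all 546 and 153 members of the 2 upper bins were in both KO libraries. Read in KO_401 alone 9.65% of members lacked a peak, and in KO_399 alone 4.56%. Chosen by WT_409 alone 11.5% lacked it in both KO libraries, and by WT_407 alone 7.18%. Since presence in both WT libraries chose the intervals, absence can show in KO libraries only, and no test was made. Chosen in the same way from the KO lists, 4330 gene-body intervals resulted, of which 79.0% were in both WT libraries and 5.15% in neither. Of gene-end intervals chosen from the KO lists 93.5% were in both WT libraries and 1.70% in neither. Of intergenic ones 82.3% were in both and 4.63% in neither. The loss was thus larger in that direction for gene-body, gene-end and intergenic intervals alike.

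**Figure D2:**
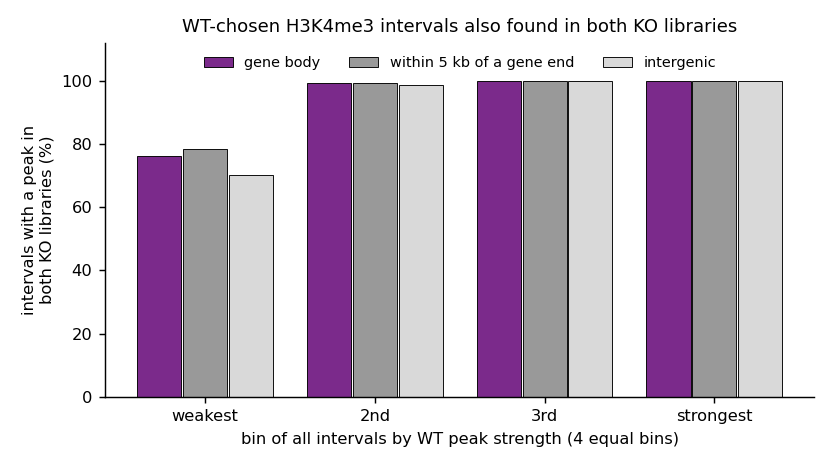
Share of the intervals held by both WT libraries that also had a peak in both KO libraries (y axis, percent), by bin of WT peak strength (x axis, 4 equal bins of all intervals), for gene-body, gene-end and intergenic intervals. In the weakest bin the 3 kinds stand at 76.2%, 78.4% and 70.1%, and from the next bin on each is above 98%.

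The members absent from both KO libraries were weak or small: 99 of the 102 were in the weakest bin and 3 in the next. The strongest of them lay in Gm40847 and Gm40862, predicted genes of chromosome 12, Slc15a2, a peptide transporter, Lrrc8d, a volume-regulated anion channel subunit, Fbn1, the extracellular matrix protein fibrillin-1, and Coro1c, an actin-binding coronin. At Slc15a2 (chr16:36765037-36765352) the WT peaks measured 311 and 293 bp with 47 and 32 reads at the summit, and no KO peak was listed. At Fbn1 (chr2:125456015-125457085) they measured 1071 and 810 bp with 29 and 26 reads, and again no KO peak was listed. A missing peak means that the authors' filter of 5-fold was not reached, and not that the mark was absent. At the most common background this filter took 17.2 and 13.6 reads in the KO libraries, but the background at these members was not compared.

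Counted in each library alone, gene-body peaks did not differ between genotypes beyond the spread of the animals. KO_399 and KO_401 had 6062 and 5207 of them and WT_407 and WT_409 had 5058 and 5706, that is 5634 ± 605 in KO and 5382 ± 458 in WT (SD, n = 2 each; difference 252, two-sided exact permutation test, p = 0.667, where 6 labelings allow no p below 0.33). They were 22.5% and 21.3% of all peaks in KO and 20.7% and 22.3% in WT, a difference of 0.428 percentage points (exact permutation p = 0.667), and covered 6.10 and 4.73 Mb in KO and 4.71 and 5.27 Mb in WT. KO_399 was the highest and WT_409 the next. Without KO_399 the difference in number was −175 and without WT_407 −71.5, so its direction rests on these libraries. Merged over all 4 libraries there were 7162 gene-body regions, of which 3370 (47.1%) were in every library. Regions of both KO and neither WT library numbered 223 (3.11%, against 2.06% of all 29724 regions of any kind), and regions of both WT and neither KO library 102 (1.42%, against 1.02%). Without KO_399 the KO-only and WT-only regions numbered 446 and 381, without KO_401 994 and 180, without WT_407 455 and 655 and without WT_409 678 and 363. These counts ask for presence or absence in fewer libraries and are not directly comparable with 223 and 102. Regions of a single library numbered 758 in KO_399, 178 in KO_401, 253 in WT_407 and 547 in WT_409.

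KO and WT peak widths did not overlap at some members, in each direction. Both KO peaks were narrower than both WT peaks at 443 members (11.2%, against 8.30% of all intervals), with a missing peak counted as 0 bp, and 260 of these 443 had a peak in both KO libraries. Both were wider at 687 members (17.4%, against 21.0% of all intervals). WT peaks set the borders of the intervals, so WT widths cannot pass them, while KO widths count whole peaks that may. This favours the wider count, and its part in the 687 was not tested. The median difference of the mean widths, KO minus WT, was −252 bp at the narrower ones, 264 bp at the wider ones and 31.2 bp over all members. Leaving out a library asks for widths apart in fewer libraries, which loosens the criterion, so such counts are not directly comparable with 443 and 687. Without KO_399 the narrower members numbered 1745 and the wider 811, and without KO_401 588 and 2290. Chosen and compared without WT_407 they numbered 1966 and 1557 of 5706, and without WT_409 1307 and 1826 of 5058. Of these, the wider count without KO_399 and the narrower count without KO_401 stayed within 1.5 times the counts with all 4 libraries.

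Intervals that hold snRNA genes were often narrower in KO cells, a feature looked at after widths were known. Of 7 such members 4 were narrower in both KO libraries and none was wider; 6 of the 7 lie in Tex14, a germ-cell gene on chromosome 11 whose span holds a cluster of them, and the seventh in Rnf14. Over all 21142 intervals 56 held an snRNA gene and 30 of these (53.6%) were narrower in KO, against 8.30% of all intervals and at most 21.4% in any strength bin of gene-body, gene-end or intergenic intervals. Leaving out the members, 26 of 49 were narrower (53.1%) and 1 was wider. Of intervals holding other small RNA genes, 0 of 72 with snoRNA genes were narrower and 27 wider, 8 of 127 with miRNA genes were narrower and 32 wider, and 7 of 127 with tRNA genes were narrower and 21 wider. The most common background over all peaks of a list was 2.65 and 1.93 reads per position in KO and 2.23 and 1.94 in WT. The background at the snRNA-holding intervals themselves was not compared, and its part in their widths was not tested. Without WT_409, 29 of 50 snRNA-holding intervals and 2 of 4 such members were narrower, and without each of the others 32 to 40 of 56 intervals were. Leaving out a library loosens the criterion here too. With the KO lists choosing the intervals, 21 of 45 of them and 1 of 3 gene-body ones were narrower.

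**Figure D3:**
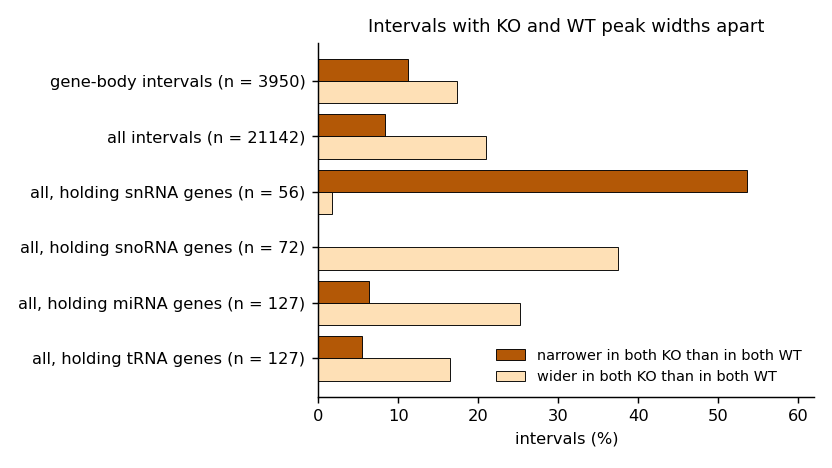
Share of intervals (x axis, percent) whose H3K4me3 peaks were below, or above, those of both WT libraries in each KO library, for gene-body intervals, all intervals, and all intervals holding small RNA genes of 4 kinds. Intervals with snRNA genes stand at 53.6% narrower and 1.79% wider, and those with snoRNA genes at 0% narrower and 37.5% wider.

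Along Tex14 the 6 snRNA-holding members lay 17.6 to 66.2 kb from the gene's start. The one over Rnu1a1, a U1 snRNA gene (chr11:87421878-87423408), measured 1066 and 1154 bp in KO_399 and KO_401, against 1531 and 1367 bp in WT_407 and WT_409. The one over Gm22068, a predicted snRNA gene (chr11:87425816-87426967), measured 381 and 288 bp in KO and 943 and 1152 bp in WT. Its summit held 38 and 20 reads in KO and 83 and 97 reads in WT, and both KO libraries were below both WT libraries in width and in reads. Rnu3b1 to Rnu3b4 are copies of the U3 RNA gene, which RefSeq files with the snRNAs. At Rnu3b1 the peak measured 783 and 673 bp in KO and 1121 and 1176 bp in WT, and at Rnu3b3 839 and 762 bp in KO and 954 and 1002 bp in WT. At Rnu3b4 it measured 811 and 781 bp in KO and 702 and 1213 bp in WT, and at Rnu3b2 788 and 933 bp in KO and 862 and 875 bp in WT. The genotypes did not overlap at Rnu1a1, Gm22068, Rnu3b1 and Rnu3b3 and overlapped at Rnu3b4 and Rnu3b2. U1 and U3 genes have near-identical copies, and the labels do not say how reads that match several copies were placed, so the values of single copies are uncertain.

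**Figure D4:**
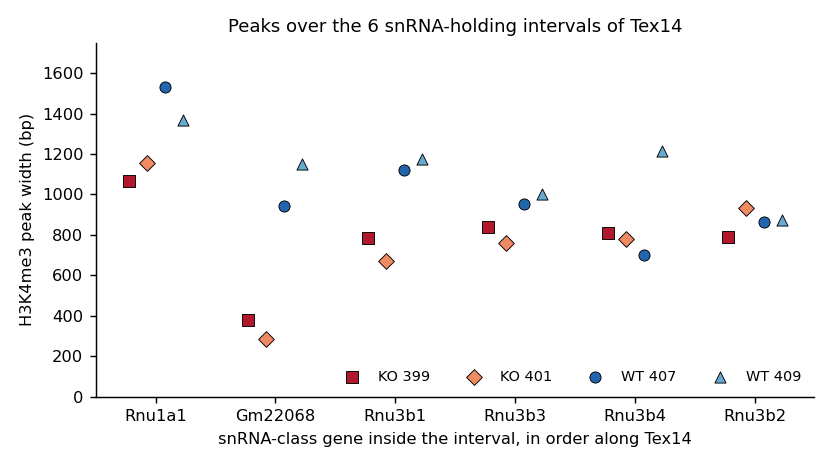
Width of the H3K4me3 peak (y axis, bp) over each of the 6 snRNA-holding intervals of Tex14 (x axis, in order along the gene), one point per library. Both KO points lie below both WT points at Rnu1a1, Gm22068, Rnu3b1 and Rnu3b3, with the widest gap at Gm22068.

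Among the wider members, the 5 largest differences were in Myh9, Ccnl1 and Slc31a2. At Myh9, the gene of non-muscle myosin heavy chain IIA, 3 neighbouring members of 448 to 3484 bp in WT were covered in each KO library by a single peak, of 13290 bp in KO_399 and 12927 bp in KO_401, which extended over the Myh9 start. They were the only wider members, 3 of 687, whose peak reached a gene end in both KO libraries. At Ccnl1, the gene of cyclin L1, a regulator of splicing, the member 7.54 kb from the start was inside peaks of 7151 and 6189 bp in KO, against peaks of 1839 and 1725 bp in WT. At Slc31a2, a copper transporter gene, the peaks measured 5942 and 5924 bp in KO and 1287 and 1616 bp in WT. The touching KO peaks also had a far higher fold, read at each peak's own summit, which may lie outside the member. Their fold was 72.6 and 82.0 at Myh9, against 5.07 to 14.5 at the 3 members in WT. It was 74.0 and 86.0 in KO and 6.95 and 5.58 in WT at Ccnl1. At Slc31a2 it was 50.3 and 73.0 in KO and 7.13 and 16.6 in WT. WT widths count only peaks inside the member, and whether the KO peaks took in stronger neighbouring WT peaks was not tested.

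In the other direction, 1 of the 2 members of Ank1, which encodes erythroid ankyrin, measured 504 and 243 bp in KO and 520 and 2090 bp in WT. The other Ank1 member measured 1031 and 710 bp in KO and 792 and 1263 bp in WT, and the genotypes overlapped there. A member of Ltf, the gene of the neutrophil protein lactoferrin, was absent from KO and measured 184 and 2234 bp in WT. Another Ltf member measured 1039 and 1269 bp in KO and 955 and 2013 bp in WT, so the genotypes overlapped there. A member of Etv6 was absent from KO and measured 355 and 1483 bp in WT. Of all 8 Etv6 members 3 were narrower in KO, the absent one included, and 4 were wider. WT_409 was far wider than WT_407 in the Ank1 member named first and in the Ltf and Etv6 members absent from KO. WT_409 is the library with peaks at all 5 erythroid markers, and the part of cell composition in these differences was not tested. The members of Fbn1, given above, and Diaph1, an actin-nucleating formin (absent from KO, 1270 and 1471 bp in WT), were of like width in both WT libraries.

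H3K27me3 peaks touched few members, and fewer in KO than in WT cells. They touched 233 (5.90%) in KO_399 and 297 (7.52%) in KO_401, against 344 (8.71%) in WT_407 and 374 (9.47%) in WT_409. The share was 6.71 ± 1.15% in KO and 9.09 ± 0.537% in WT (SD, n = 2 each), a difference of −2.38 percentage points with both KO libraries below both WT libraries (two-sided exact permutation p = 0.33, the smallest that 2 against 2 allows, so it cannot pass a threshold of 0.05). Shares were lower in KO at other intervals too: the difference was −4.55 percentage points at gene ends, −3.24 between genes and −3.79 over all intervals, and the H3K27me3 lists as a whole covered 15.2 and 23.1 Mb in KO and 34.5 and 31.5 Mb in WT. With H3K27me3 lists of equal length the difference at members was −1.10 percentage points (exact permutation p = 0.667). In all 4 libraries 228 members (5.77%) carried H3K27me3 and in none 3554 (90.0%). Of the 322 members that carried it in both WT libraries 35 lacked it in both KO libraries, against 280 of 3166 over all intervals, and no member and no other interval had it in both KO and neither WT library. In bulk cells, fewer cells with the mark and less of the mark per cell cannot be told apart, nor can both marks on 1 allele from each mark in different cells.

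**Figure D5:**
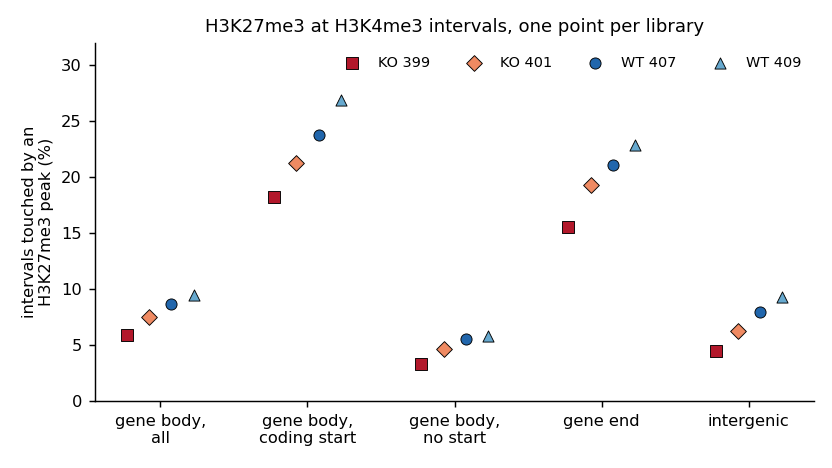
Share of H3K4me3 intervals touched by an H3K27me3 peak (y axis, percent), one point per library, for gene-body intervals (all, with a coding start, with no start), gene-end and intergenic intervals. In each class the order is KO_399, KO_401, WT_407, WT_409 from low to high.

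Members over a coding start carried H3K27me3 more often than those without a start. It touched 18.2% and 21.3% of the 516 in KO and 23.8% and 26.9% in WT, against 3.32% and 4.69% of the 3136 in KO and 5.55% and 5.87% in WT. The Gata3 interval (chr2:9878279-9879727), at an alternative start of this T-cell factor gene, was covered over its whole 1449 bp in all 4 libraries, and its H3K4me3 peak measured 3768 and 1766 bp in KO and 1449 and 1349 bp in WT. The Mecom interval (chr3:30012207-30013369), at a start 497 kb into the gene of the stem-cell factor EVI1, was covered over its 1163 bp in all 4 libraries, and its H3K4me3 peak measured 1255 and 1265 bp in KO and 1163 and 949 bp in WT. The alternative start of Ebf3, a transcription factor of stromal cells, was covered over 1780 bp in all 4. Among members with no annotated start, the one in Tal1, a master factor of blood formation, was covered over 980 and 1853 bp in KO and 1853 bp in both WT libraries. The strongest members with H3K27me3 in all 4 libraries were in Zfhx3 and Usp44, with no start by RefSeq's promoter windows, and in Crybg1, with a start within 1000 bp. These windows gave no start of known strand for Usp44, so a start missing from them is possible there. At Zfhx3, a homeobox and zinc-finger factor gene, H3K27me3 covered 179 and 1061 bp in KO and 1893 and 2156 bp in WT, while the H3K4me3 peak measured 2480 and 2327 bp in KO and 2128 and 1895 bp in WT. Usp44, a deubiquitinase gene, had 780 and 1241 bp of H3K27me3 in KO and 1329 and 1540 bp in WT, and Crybg1 1703 and 2126 bp in KO and 2126 bp in both WT libraries. Both KO libraries were below both WT libraries at Zfhx3 and Usp44, and KO_401 equalled WT at Crybg1 and Tal1.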

How the data were processed

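Chromatin of sorted cKit+ bone marrow cells, fixed with 1% formaldehyde and sheared to 100 to 300 bp, was immunoprecipitated for H3K4me3 or H3K27me3 and sequenced with 75 bp reads, per the labels' protocols. MACS2, Bowtie2, SAMtools, deepTools, FastQC, Trim Galore and the build mm10 are named in the submitters' processing notes; versions and the control used for calling are not given in the sources used here. The authors deposited 1 narrowPeak list per library (4 for H3K4me3, 8 in all), with an integer score, a fold enrichment (ratio), a −log10 p and a −log10 q per peak. No deposited fold is below 5, so weaker peaks are absent. Fold, p and q are the authors' values; they served to rank, describe and, in 1 alternative, filter the peaks of each list. Reads at a summit and the background were recovered from fold and p as Poisson values, which matched every peak within 0.001. The background given for a library is the most common value over its peaks.

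Peaks were merged, classed and compared in Python 3.11.15 with NumPy 2.4.6, pandas 2.3.3 and SciPy 1.17.1, and the merging and classing were tested on simulated data. A library has an interval if any peak of it overlaps. Width is the whole width of its touching peaks, while sums over a host gene count only bases inside the intervals. Genes and promoter sequences are from RefSeq (GRCm38.p6), where 1953 of 2446 hosts have a promoter entry. Genotypes were compared over libraries by two-sided exact permutation tests; where presence in WT chose the members, values are descriptions. Replicates are the 2 libraries of each genotype, so p-values measure the spread between these. Members and gene lists were chosen with earlier results of these data known. Genes named are the 8 strongest members, the 6 strongest absent from KO, the hosts with most members, up to 3 per list, 5 at lncRNA starts, 3 with H3K27me3 throughout and the 5 largest width differences in each direction; coding starts in listed genes and small RNA genes were added after values were seen. Alternatives changed the fold, overlap, merging, list length, distance, width and gene kinds, and left out each library.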

Additional observations from a re-analysis of the deposited data

Results flagged for a closer look

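The rule was run on chromosomes 1 to 19. On chromosome X, which the comparisons do not use, the same rule found 71 gene-body intervals among the 584 intervals of both WT libraries (12.2%). A peak was present in both KO libraries at 65 of these 71 (91.5%) and in neither at 0, and their median width was 1079 bp.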

How the results depend on the processing

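No paired analysis was possible because the KO and WT libraries carry different animal numbers. The number of gene-body intervals was 2206 with a fold of at least 8, and 3950 to 5706 when each library was left out. The share in both KO libraries moved to 85.5% when coverage of 50% of the interval was required and to 86.5% below 2000 bp, and was 72.4% to 95.4% when each library was left out. The share in neither was 4.56% to 11.5% then. With a library left out, presence is asked of fewer libraries, so these ranges are not directly comparable with the main values. With the KO lists choosing, 79.0% were in both WT libraries and 5.15% in neither. The difference in gene-body peaks per library, 252, was −175 without KO_399 and −71.5 without WT_407, and 680 and 576 without KO_401 and WT_409; the difference in share was −0.165 and −0.386 percentage points, against 1.02 and 1.24. With list lengths made equal it was 3 peaks and 0.0132 points (exact permutation p = 1).

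Regions of KO only numbered 101 and of WT only 54 with a fold of at least 8, and 446 to 994 and 180 to 655 when each library was left out. Leaving out a library loosens the criterion for these regions and for the width counts below, so such counts are not directly comparable with the main ones. Settings for width were chosen after seeing the data: narrower members numbered 224 and wider members 378 with a fold of at least 8, and 282 and 1043 with the KO lists choosing; leaving out each library gave 588 to 1966 and 811 to 2290. The narrower snRNA-holding intervals were 26 of 46 with a fold of at least 8, 21 of 45 with the KO lists choosing, 34 of 56 by bases covered inside the interval and 29 to 40 when each library was left out. Of the snRNA-holding members 1 of 3 was narrower with the KO lists choosing, and 2 to 5 when each library was left out. The H3K27me3 difference stayed below 0 in all 6 alternatives (−1.10 to −3.19 percentage points). Causes were not tested. Presence depends on reaching 5-fold enrichment. At the most common background of each list this took more reads in KO_399 than in the other H3K4me3 libraries.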
